A study of Mus musculus with 32 samples.

Results

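The genes described here are 7 inflammatory chemokine receptors, Cxcr3, Cxcr6, Ccr2, Ccr3, Ccr4, Ccr8 and Cx3cr1. They were chosen by symbol from the 16741 genes of the RNA table, and all 7 were found and tested. The study sorted donor T cells from C57Bl6 mice before and after transfer into mice that develop acute graft-versus-host disease (GVHD), and asked what regulatory T cells (Treg) given to the hosts change in the other donor T cells. RNA was measured in 31 bulk libraries of T cells sorted from spleen and lymph nodes, in 10 groups. In day 0 groups the cells were taken before transplantation (CD4, CD8 and Treg, n = 2 each). In allogeneic groups CD4 or CD8 cells came from untreated hosts with GVHD (n = 4 each), which were major-mismatched Balb/c mice. In Treg-treated groups the hosts had GVHD and received Treg, and CD4 cells (n = 4), CD8 cells (n = 4) and the Treg themselves (n = 3) were sorted. In syngeneic groups CD4 or CD8 cells came from untreated syngeneic controls without mismatch (n = 3 each). Sample titles give day 6 for all post-transplant groups, whereas the design text gives 8 days. Ages, conditioning and the sort markers are not given in the sources used here.

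Chemokine receptors are cell-surface proteins that couple to inhibitory G proteins, and they steer migrating leukocytes along gradients of chemokines. CXCR3, the receptor for CXCL9, CXCL10 and CXCL11, and CXCR6, the receptor for membrane-bound CXCL16, mark effector T cells of the type 1 response and guide them into inflamed tissue, including the liver and gut that GVHD attacks. CCR2 binds CCL2 and related chemokines, and CX3CR1 binds CX3CL1. Both are also abundant on monocytes, and CX3CR1 marks cytotoxic effector CD8 cells. CCR3 binds eotaxins and is best known from eosinophils, whereas CCR4 (CCL17 and CCL22) and CCR8 (CCL1) are typical of type 2 helper cells, of skin-homing cells and of Treg.

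In the RefSeq annotation of GRCm38.p6, 6 of the 7 genes lie on chromosome 9 and Cxcr3 lies on chromosome X. Cx3cr1 and Ccr8 are neighbours separated by 23.8 kb, and Ccr3 and Ccr2 are separated by 70.2 kb. The 250 bases before the RefSeq start are shown for 4 genes that differed between allogeneic and syngeneic CD8 cells and whose window ends at the outermost start of the gene. They lie at chrX:101734148-101734397 (minus strand) for Cxcr3, chr9:123806227-123806476 (plus strand) for Cxcr6, chr9:120091883-120092132 (plus strand) for Ccr8 and chr9:120068297-120068546 (minus strand) for Cx3cr1, written 5′ to 3′ on the gene's strand. Capitals mark matches, on either strand, to motifs of T-cell factor families: AGGTGT (T-box), GATAA (the GATA family), TGANTCA (AP-1), GGAAA (NFAT), TGTGGT (RUNX) and GTAAACA (forkhead).
Cxcr3: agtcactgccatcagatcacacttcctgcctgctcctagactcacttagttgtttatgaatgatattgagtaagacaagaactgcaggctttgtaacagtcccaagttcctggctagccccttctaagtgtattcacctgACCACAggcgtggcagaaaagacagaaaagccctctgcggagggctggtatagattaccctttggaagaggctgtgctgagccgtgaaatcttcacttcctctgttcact
Cxcr6: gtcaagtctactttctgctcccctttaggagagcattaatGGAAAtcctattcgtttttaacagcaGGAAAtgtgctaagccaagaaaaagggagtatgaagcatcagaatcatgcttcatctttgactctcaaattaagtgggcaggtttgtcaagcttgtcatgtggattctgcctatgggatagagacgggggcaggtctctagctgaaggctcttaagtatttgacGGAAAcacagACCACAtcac
Ccr8: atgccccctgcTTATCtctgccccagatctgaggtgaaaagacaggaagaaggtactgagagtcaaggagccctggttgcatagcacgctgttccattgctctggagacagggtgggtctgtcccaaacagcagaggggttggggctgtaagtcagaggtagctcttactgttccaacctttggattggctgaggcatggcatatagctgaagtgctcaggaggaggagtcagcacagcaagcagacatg
Cx3cr1: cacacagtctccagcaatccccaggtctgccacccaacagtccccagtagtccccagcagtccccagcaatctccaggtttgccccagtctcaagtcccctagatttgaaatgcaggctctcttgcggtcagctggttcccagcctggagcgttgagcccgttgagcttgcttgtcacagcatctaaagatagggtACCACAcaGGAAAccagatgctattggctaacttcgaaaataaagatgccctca

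A RUNX match was found in 3 of the 7 genes (Cxcr3, Cxcr6 and Cx3cr1), starting 110, 10 and 54 bases before the start, while 14.0% of 32851 promoter windows of this length hold one. An NFAT match was in 5 of 7 genes and in 55.6% of windows, a GATA match in 3 and in 22.6%, and an AP-1 match in 2 and in 6.75%. T-box and forkhead letters were in none of the 7, against 11.8% and 3.17% of windows. In Ccr4 the AP-1 match follows the NFAT match without a gap, and no matches overlapped. These are matches of letters and not measured binding sites.

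Levels are normalised counts, read counts that the authors scaled between libraries, and they compare libraries for 1 gene but not 1 gene with another. The mean level per gene ranged from 1227 to 2385 over the libraries. Reads could not be recovered, so the depth behind each value is unknown. Differences are log2 changes of log2(value + 1), which understate the change of genes with low values, and a change was called when the limma adjusted p over all 16741 genes was under 0.05. The labels do not say that libraries of a group came from separate animals, so p-values measure only the spread between these libraries. Because the samples are bulk RNA, fewer cells of a type and less RNA per cell cannot be told apart. Cd4 and Cd8a followed the labelled cell type in the libraries with 1 exception. This was the library labelled CD4 syngeneic JL019-2, with 1659 for Cd4 against 16526 and 14576 in the rest of its group, and 1956 for Cd8a against 58.2 and 114. Its 8 granulocyte markers summed to 4572693, against 387 to 119335 in the others, its 12 monocyte and macrophage markers to 924541 against 4607 to 29607, and its 6 erythroid markers to 463705 against 117 to 62447. Counts of listed genes and group means include this library, and named log2 changes that passed and rest on it are also given without it. The spread of each gene was pooled over all libraries, so this library also enters the SE of comparisons that do not use its group. It was left out only from comparisons with its group. In Treg at day 0, Foxp3, the defining Treg factor, was 198 and 442, below the 978 and 1145 of day 0 CD4 cells, while 6 of 7 Treg markers passed as higher.

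**Figure D1:**
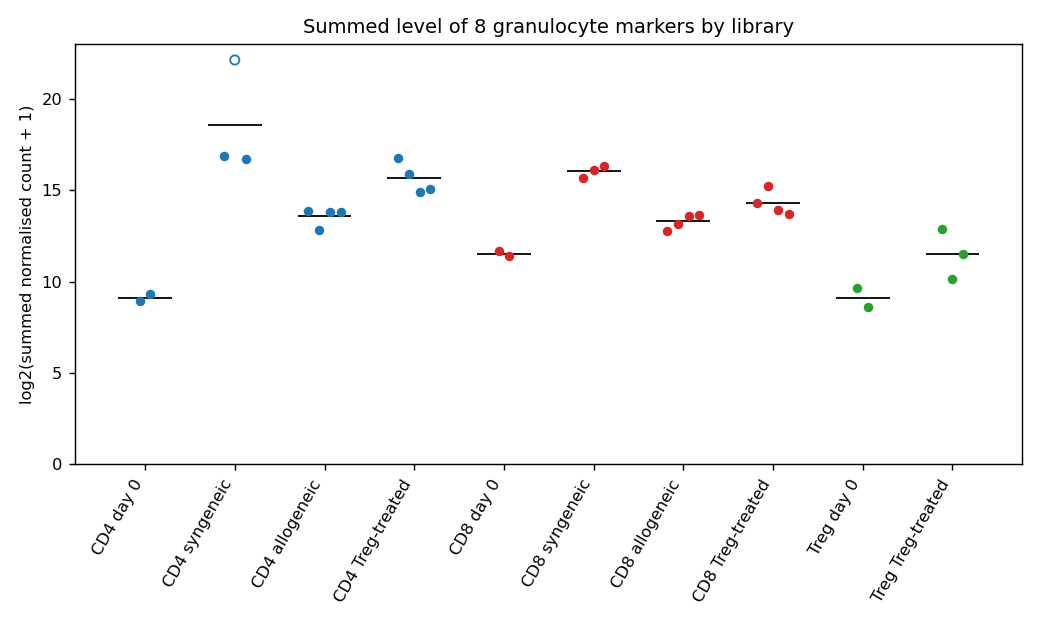
Summed level of 8 granulocyte markers, as log2(sum + 1), in each of 31 libraries (points) by group, with the group mean of the log2 values as a bar. The open point is the library labelled CD4 syngeneic JL019-2, at a sum of 4572693, and the CD4 Treg-treated libraries (30754 to 110867) lie above the CD4 allogeneic ones (7239 to 14952).

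**Figure D2:**
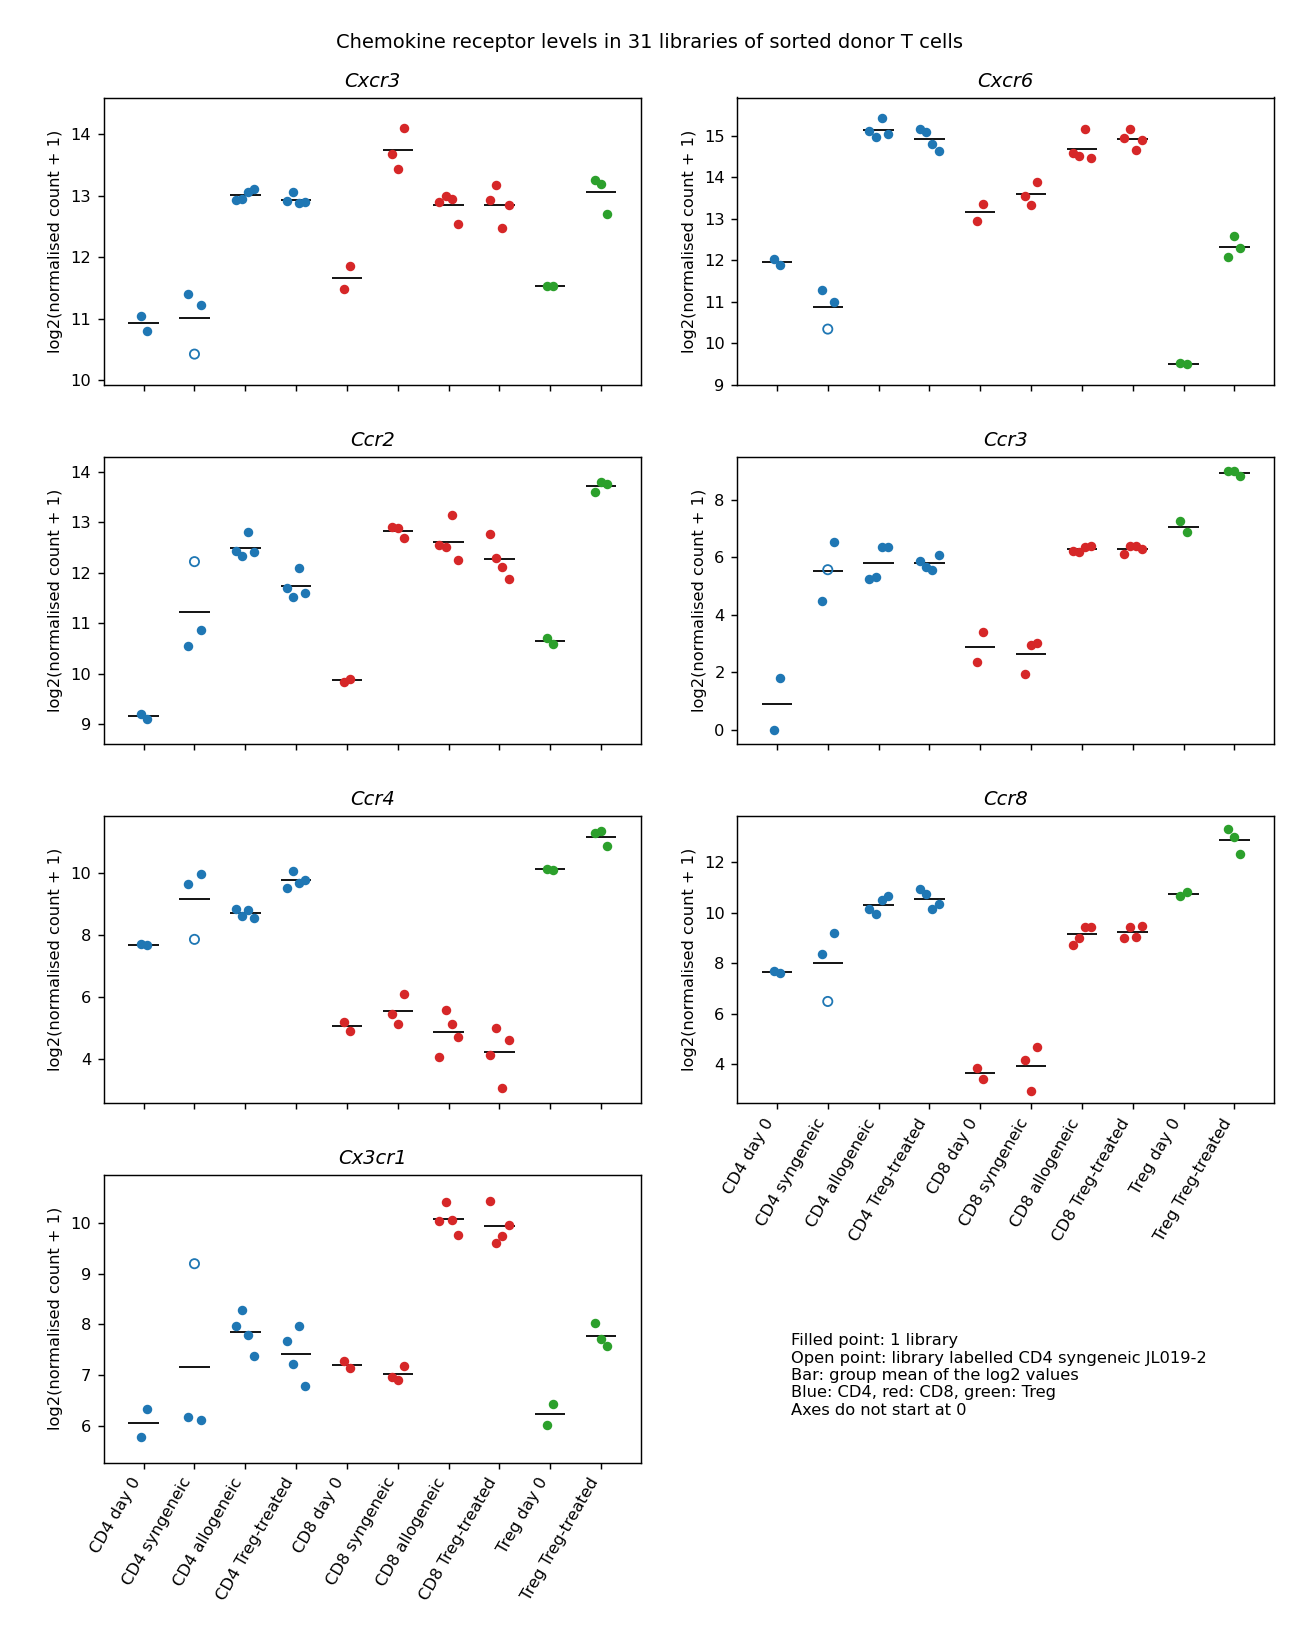
Level of each receptor, as log2(normalised count + 1), in each of 31 libraries (points) by group, with the group mean of the log2 values as a bar and axes that do not start at 0. Cxcr6 was lowest in day 0 Treg, Ccr2, Ccr3, Ccr4 and Ccr8 were highest in Treg after transplantation, and Cx3cr1 was highest in CD8 cells of allogeneic and Treg-treated hosts.

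The first comparison addressed how GVHD differs from transplantation without mismatch, by setting allogeneic against syngeneic hosts. In CD4 cells Cxcr3, Cxcr6, Ccr2 and Ccr8 were higher in allogeneic hosts, 4 of 7 receptors, while 6.69% of all genes passed as higher and 14.6% in either direction. In CD8 cells Cxcr6, Ccr3, Ccr8 and Cx3cr1 were higher and Cxcr3 was lower, 5 of 7 receptors against 21.1% of all genes in either direction. The receptors' median log2 change was 1.28 in CD4 and 1.09 in CD8 cells, and over all genes it was -0.0014 and 0.017. Between the same CD8 groups, granulocyte marker sums were 51188 to 83211 in syngeneic and 7093 to 12612 in allogeneic libraries. B cell marker sums were 3275 to 4051 and 1134 to 1256 in the same order. Neither list overlapped between these groups, and their part in the CD8 receptor changes was not tested.

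Cxcr3, which brings effector T cells to sites with interferon-induced chemokines, moved in opposite directions in the cell types. In CD4 cells it was 2696, 1376 and 2393 in syngeneic and 7825, 7883, 8514 and 8803 in allogeneic hosts. In CD8 cells it was 13131, 11096 and 17545 in syngeneic and 7683, 8218, 7914 and 5979 in allogeneic hosts. The groups did not overlap in either cell type, and the allogeneic CD4 and CD8 levels came out alike while the syngeneic ones lay far apart. The log2 change was 1.99 (± 0.21 SE, adjusted p 1.13e-07 by limma) in CD4 cells and -0.89 (± 0.21 SE, adjusted p 0.00268 by limma) in CD8 cells. Without the library labelled CD4 syngeneic JL019-2 the CD4 change was 1.70 (adjusted p 1.21e-06 by limma).

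Cxcr6, a receptor of tissue-resident effector cells, rose in both cell types. In CD8 cells the syngeneic libraries held 11935, 10311 and 15183 and the allogeneic ones 24422, 23238, 36819.8 and 22739, a log2 change of 1.09 (± 0.217 SE, adjusted p 0.00046 by limma). All allogeneic libraries lay above all syngeneic ones, and JL027-1 was the highest. In CD4 cells the syngeneic level was 2496, 1294 and 2040.2 and the allogeneic level 35507, 32281, 43960.1 and 33944, with no overlap and a log2 change of 4.27 (± 0.217 SE, adjusted p 3.92e-13 by limma), or 4.0 (adjusted p 1.95e-12 by limma) without the library labelled CD4 syngeneic JL019-2. Allogeneic CD4 cells thus had the highest mean of all 10 groups, although the range of each of the 3 next groups, in allogeneic or Treg-treated hosts, overlapped its neighbour.

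Ccr2 and Cx3cr1, the pair shared with monocytes, differed by cell type. Ccr2 in CD4 cells was 1498, 4766 and 1868 in syngeneic and 5529, 5157, 7189 and 5406 in allogeneic hosts. The high syngeneic value is the library labelled CD4 syngeneic JL019-2, and even so the groups did not overlap. The log2 change was 1.28 (± 0.272 SE, adjusted p 0.00141 by limma) and 1.79 (adjusted p 2.91e-06 by limma) without that library, and it did not pass with only the groups compared in the fit (adjusted p 0.084). In CD8 cells Ccr2 was 7713, 7604 and 6614 in syngeneic and 5969, 5795, 9051 and 4873 in allogeneic hosts, where the groups overlapped and the change did not pass (limma adjusted p 0.62).

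Cx3cr1 rose in CD8 cells from 124, 119.9 and 145 in syngeneic to 1043, 1359, 1065 and 869 in allogeneic hosts. Every allogeneic library lay far above every syngeneic one, and the log2 change was 3.04 (± 0.453 SE, adjusted p 1.20e-05 by limma). The 12 monocyte and macrophage markers went the other way in sum, with 15956 to 22329.8 in syngeneic and 6162 to 7244 in allogeneic CD8 libraries, 2 of them passing as higher and 4 as lower. The sum of 6 NK cell markers was higher where Cx3cr1 was, 7638 to 8894 in syngeneic and 12165 to 20067 in allogeneic CD8 libraries, although 1 passed as higher and 3 as lower. Most of that sum in allogeneic CD8 cells is Klrk1, a receptor that activated CD8 cells also carry, at 1494 to 2651 in syngeneic and 10512 to 18424 in allogeneic libraries. Ncr1, a defining NK cell receptor, was 6.71 to 20.0 and 1.72 to 8.67 in the same order, and Klra8 was listed at 0 in every allogeneic CD8 library. Klrb1c, also on the NK cell list, was 367 to 679 in syngeneic and 358 to 692 in allogeneic CD8 libraries, which overlapped. The part of these markers in the Cx3cr1 result was not tested. In CD4 cells Cx3cr1 was 71.2, 584 and 68.9 and 248, 309.9, 219.5 and 166, with a log2 change of 0.69 (± 0.453 SE, adjusted p 0.37 by limma). Here the library labelled CD4 syngeneic JL019-2 was above every allogeneic library and the rest of its group below all of them. Without it the change was 1.70 (adjusted p 0.000223 by limma), which passed and made 5 of 7 receptors. In allogeneic against syngeneic CD4 cells 9 of 12 monocyte and macrophage markers and 8 of 8 granulocyte markers passed as lower, and their part in the Ccr2 and Cx3cr1 values was not tested.

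Ccr3, Ccr4 and Ccr8, receptors linked to type 2 and regulatory cells, did not move as a group. Ccr3 in CD8 cells was 2.88, 6.72 and 7.07 in syngeneic and 73, 72.1, 82.2 and 83.1 in allogeneic hosts, a log2 change of 3.65 (± 0.433 SE, adjusted p 3.35e-07 by limma). The allogeneic values lay close together, and none came near the syngeneic ones. Epx, which encodes eosinophil peroxidase, was 0.911 to 7.51 in these allogeneic and 13.8 to 16.0 in the syngeneic CD8 libraries, whereas Siglecf, an eosinophil surface protein, was 19.3 to 31.2 and 0.903 to 3.16. Of 8 eosinophil, basophil and mast cell markers 1 passed as higher and none as lower, with sums of 113 to 215 and 136 to 199, and their part in the Ccr3 values was not tested. In CD4 cells Ccr3 was 21.5, 46.6 and 91.8 and 37, 38.7, 82.2 and 80.5, where the groups overlapped and the change did not pass (limma adjusted p 0.742).

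Ccr8, the CCL1 receptor, had the largest of the receptors' changes between allogeneic and syngeneic CD8 cells. It was 17.1, 6.7 and 24.5 in syngeneic and 423, 517, 684 and 699.8 in allogeneic hosts, a log2 change of 5.22 (± 0.421 SE, adjusted p 3.34e-10 by limma). In CD4 cells it was 327, 88.4 and 582 and 1147, 997, 1438 and 1636, a log2 change of 2.32 (± 0.421 SE, adjusted p 0.000278 by limma), or 1.55 (adjusted p 0.00399 by limma) without the library labelled CD4 syngeneic JL019-2. The groups did not overlap in either cell type. All 7 Treg markers passed as higher in allogeneic against syngeneic CD8 cells and 5 of 7 in CD4 cells, and their part in the Ccr8 and Ccr3 values was not tested.

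Ccr4, the receptor for CCL17 and CCL22, did not pass in either cell type in the fit over all libraries. In CD4 cells it was 809, 233 and 1008 in syngeneic and 462, 393, 454 and 379.6 in allogeneic hosts. The low syngeneic value is the library labelled CD4 syngeneic JL019-2, the rest of that group lay above every allogeneic library, and the log2 change was -0.45 (± 0.419 SE, adjusted p 0.557 by limma), or -1.10 (adjusted p 0.0735 by limma) without it. With array weights it passed as lower, -1.07 (adjusted p 0.0143 by limma). The array weights, here and below, did not fully converge and were uneven. CD8 syngeneic JL019-1 had a weight of 113, and every other library 0.103 to 2.08. In CD8 cells all values were low, 42.6, 33.9 and 68.1 in syngeneic and 15.7, 47.1, 33.8 and 25.1 in allogeneic hosts, and the groups overlapped (limma adjusted p 0.266).

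The differences between the cell types were tested as the allogeneic against syngeneic change in CD8 minus that in CD4 cells. They passed for 6 of 7 receptors, against 4.65% of all genes. The change was smaller or opposite in CD8 cells for Cxcr3, with a difference of -2.88 (± 0.297 SE, adjusted p 6.01e-07 by limma), for Cxcr6, with -3.18 (± 0.307 SE, adjusted p 3.35e-07 by limma), and for Ccr2, with -1.50 (± 0.385 SE, adjusted p 0.0201 by limma). It was larger in CD8 cells for Ccr3, with 3.37 (± 0.612 SE, adjusted p 0.00103 by limma), for Ccr8, with 2.91 (± 0.595 SE, adjusted p 0.00335 by limma), and for Cx3cr1, with 2.35 (± 0.641 SE, adjusted p 0.0305 by limma). Ccr4 did not pass (limma adjusted p 0.915). Without the library labelled CD4 syngeneic JL019-2 the difference was 1.34 (adjusted p 0.058 by limma) for Cx3cr1, which then did not pass and left 5 of 7, and 3.67 (adjusted p 1.32e-05 by limma) for Ccr8. It was -2.59 (adjusted p 5.05e-07 by limma) for Cxcr3, -2.91 (adjusted p 2.84e-07 by limma) for Cxcr6, -2.01 (adjusted p 9.99e-05 by limma) for Ccr2 and 3.35 (adjusted p 0.00192 by limma) for Ccr3. With quantile normalisation Ccr8 had 2.27 (adjusted p 0.0662 by limma) and Cx3cr1 2.11 (adjusted p 0.0821 by limma). With only the 4 groups in the fit Ccr2 had -1.50 (adjusted p 0.101 by limma) and Cx3cr1 2.35 (adjusted p 0.135 by limma).

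**Figure D3:**
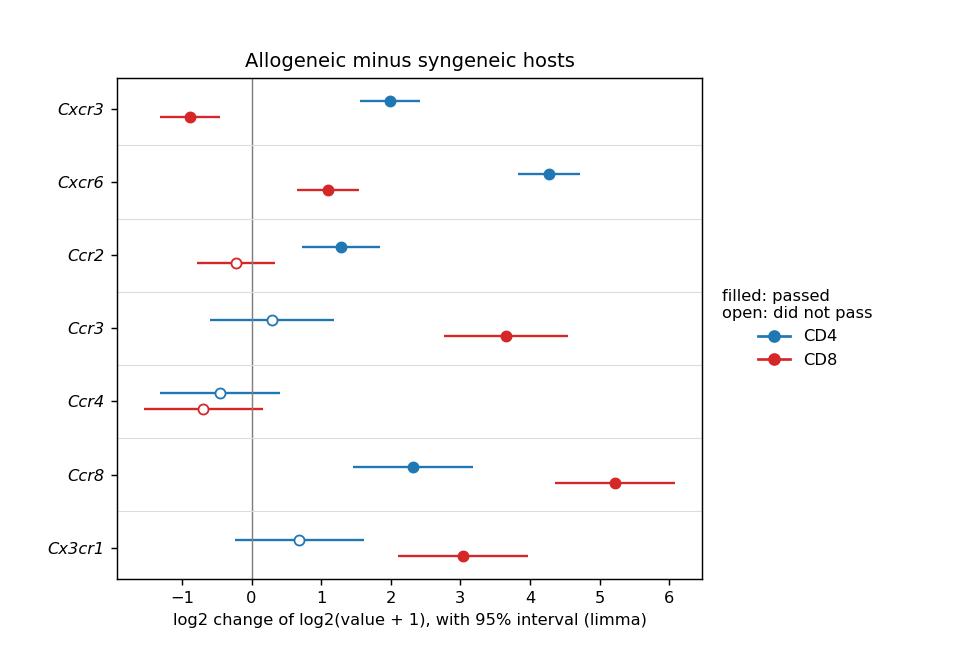
Log2 change of each receptor in allogeneic against syngeneic hosts, on log2(value + 1), in CD4 (blue) and CD8 cells (red), with limma 95% intervals. Filled points passed at an adjusted p under 0.05. The cell types lie on opposite sides of 0 for Cxcr3 (1.99 and -0.89).

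Syngeneic hosts were also compared with day 0. In CD8 cells 2 of 7 receptors passed, a share near the 24.2% of all genes that were called. Cxcr3 rose from 2862 and 3712 to the 13131, 11096 and 17545 given above, a log2 change of 2.07 (± 0.251 SE, adjusted p 2.21e-06 by limma), and syngeneic CD8 cells had the highest Cxcr3 of all groups. Ccr2 rose from 911 and 956 to 7713, 7604 and 6614, a log2 change of 2.97 (± 0.325 SE, adjusted p 4.76e-07 by limma). Monocyte and macrophage marker sums were 7631 to 10601 at day 0 and 15956 to 22329.8 in syngeneic CD8 libraries, with 0 of 12 passing (limma; 1 at an unadjusted p under 0.05). Granulocyte marker sums were 2696 to 3226 and 51188 to 83211, with 6 of 8 passing as higher, and the part of either list in the Ccr2 change was not tested. Ccr8 stayed low in syngeneic CD8 cells, between 6.7 and 24.5, and did not pass (limma adjusted p 0.684).

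In syngeneic CD4 cells 3 of 7 receptors passed against day 0, beside 13.0% of all genes. Ccr2 rose from 589 and 550.2, a log2 change of 2.06 (± 0.325 SE, adjusted p 4.50e-05 by limma), or 1.55 (adjusted p 0.000145 by limma) without the library labelled CD4 syngeneic JL019-2. Between the same groups 9 of 12 monocyte and macrophage markers and 8 of 8 granulocyte markers passed as higher. Their sums were 5889.9 to 7188 and 486 to 642 at day 0 and at least 22983 and 107592 in every syngeneic CD4 library, and their part in the Ccr2 change was not tested. Cxcr6 fell from 4175 and 3761, a log2 change of -1.08 (± 0.259 SE, adjusted p 0.00521 by limma), or -0.81 (adjusted p 0.0468 by limma) without the library labelled CD4 syngeneic JL019-2. Ccr3 was 0 and 2.49 at day 0 and at least 21.5 in syngeneic libraries, and its log2 change was 4.63 (± 0.517 SE, adjusted p 1.81e-07 by limma), or 4.61 (adjusted p 1.13e-06 by limma) without the library labelled CD4 syngeneic JL019-2. The change over all libraries depends on the constant added, since with 0.1 it was 6.47 (adjusted p 5.95e-07 by limma). Ccr4 had a log2 change of 1.48 (± 0.501 SE, adjusted p 0.0504 by limma), from 208 and 204 at day 0, and without the library labelled CD4 syngeneic JL019-2 it passed at 2.13 (adjusted p 0.00195 by limma), which made 4 of 7. In a fit with only these groups none of the 7 passed. At an unadjusted p under 0.05, 4 of the 7 did in the fit over all groups.

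Against day 0, allogeneic cells of both types had 6 of 7 receptors higher and none lower, beside 14.4% of all genes as higher (24.0% in either direction) among CD4 cells, and 16.3% (30.4%) among CD8 cells. These comparisons share their allogeneic libraries with those above. In CD4 cells the log2 changes were 2.08 for Cxcr3, 3.19 for Cxcr6, 3.34 for Ccr2, 4.92 for Ccr3, 2.68 for Ccr8 and 1.79 for Cx3cr1, with limma adjusted p from 8.85e-11 to 0.0112. The Ccr3 change depends on the constant added, and with 0.1 it was 6.77 (adjusted p 5.50e-08 by limma). In CD8 cells they were 1.18, 1.52, 2.74, 3.42, 5.52 and 2.85 in the same order, with limma adjusted p from 8.71e-10 to 0.000384. From day 0 to allogeneic hosts, the granulocyte marker sums were first 486 to 642 and then 7239 to 14952 in CD4 libraries, and first 2696 to 3226 and then 7093 to 12612 in CD8 libraries. Monocyte and macrophage sums were 5889.9 to 7188 and 4607 to 6611 in CD4 and 7631 to 10601 and 6162 to 7244 in CD8 libraries. In CD8 cells the NK cell marker sums were 2148 to 2811 and 12165 to 20067 (1 of 6 markers higher, 2 lower) and the Treg marker sums 2571 to 3190.3 and 32089 to 41887 (6 of 7 higher). In CD4 cells 2 of 6 NK cell markers and 5 of 7 Treg markers passed as higher and 1 Treg marker as lower, with Treg marker sums of 11986 to 13049.9 and 48180.3 to 62729. The part of these lists in the receptor changes was not tested. Ccr4 was the receptor that did not pass, with a log2 change of 1.03 (± 0.475 SE, adjusted p 0.126 by limma) in CD4 cells and a limma adjusted p of 0.796 in CD8 cells. In CD4 cells it passed with only the groups compared (adjusted p 0.000958 by limma) and with array weights (adjusted p 0.00434 by limma).

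The central comparison of the study asks what Treg treatment changes in the other donor T cells of hosts with GVHD. In CD4 cells Ccr2 was lower in Treg-treated than in allogeneic hosts, the 1 receptor of 7 that passed, while 11.5% of all genes passed as lower and 22.2% in either direction. In CD8 cells 0 of 7 passed with limma, 0 also at an unadjusted p under 0.05, and 0.0657% of all genes were called. The number of genes called in CD4 cells fell to 470 or rose to 5633 when single libraries were left out. Median centring shifted the median of all genes by 0.20 in this CD4 comparison, so a change below that size has no firm direction.

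Ccr2 in CD4 cells was 5529, 5157, 7189 and 5406 in allogeneic and 3319, 2947, 4356 and 3093 in Treg-treated hosts, or 5820.1 ± 925 (SD, n = 4) and 3429 ± 637 (SD, n = 4). All Treg-treated libraries lay below all allogeneic ones, and the highest of each group carried the JL027-1 label. The log2 change was -0.77 (± 0.252 SE, adjusted p 0.0316 by limma). It was -0.77 within the libraries with prefix JL019 and -0.76 within those with JL027, prefixes that the deposited T-cell receptor tables list as experiments. The call was lost in 7 of 8 fits that left out 1 library (log2 changes from -0.89 to -0.66, all except the one without CD4 Treg-treated JL027-1). It was also lost with median centring, -0.57 (adjusted p 0.127 by limma), and with the log2 library mean as a covariate, -0.91 (adjusted p 0.0511 by limma).

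Ccr4 in CD4 cells was 462, 393, 454 and 379.6 in allogeneic and 739.7, 1082, 826 and 883 in Treg-treated hosts. Every Treg-treated library lay above every allogeneic one. The log2 change was 1.05 (± 0.388 SE, adjusted p 0.0509 by limma), just above the threshold, with 1.07 within JL019 and 1.04 within JL027. It passed in 7 of 12 alternatives that left out no single library, with limma adjusted p from 0.00331 (array weights) to 0.0493. Among the 12, no filter equals the main fit and the log2 change cut-off reuses its p, so neither could pass. The fit with only the groups compared, 1 of the 7, did not use all libraries. Ccr4 passed in none of the 8 fits that left out 1 library. In CD8 cells Ccr4 was 15.7, 47.1, 33.8 and 25.1 and 16.7, 31.4, 7.41 and 23.6, which overlapped, with a log2 change of -0.66 (± 0.388 SE, adjusted p 0.514 by limma). The CD8 minus CD4 difference of the Treg-treated against allogeneic changes was -1.71 (± 0.548 SE, adjusted p 0.898 by limma) for Ccr4, and 0 of 7 receptors passed that test, 1 of them at an unadjusted p under 0.05, beside 0.00597% of all genes.

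Other cell markers differed between the same CD4 groups. The 8 granulocyte markers, 4 of which passed as higher, summed to 7239 to 14952 in allogeneic and 30754 to 110867 in Treg-treated CD4 libraries. Of 12 monocyte and macrophage markers 1 passed as higher and 1 as lower, with sums of 4607 to 6611 and 9222 to 21395. Erythroid sums were 423 to 10708 in allogeneic and 5448 to 62447 in Treg-treated CD4 libraries. Eosinophil, basophil and mast cell sums were 187 to 369 and 332 to 2066. Of 7 Treg markers 2 passed as higher, with sums of 48180.3 to 62729 and 54801 to 130016, while Foxp3 was 337 to 579 in allogeneic and 127 to 178 in Treg-treated libraries. Cd4 was 16706 to 21481 in allogeneic CD4 libraries and 8722 to 17587 in Treg-treated ones. The part of these values in the Ccr2 and Ccr4 results was not tested.

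The other receptors did not pass in CD4 cells after Treg treatment. Cxcr3 was 7695, 8601, 7523 and 7669 in Treg-treated CD4 cells, and its log2 change from allogeneic hosts was -0.07 (95% interval -0.47 to 0.33). Cxcr6 was 36859, 34908, 28763 and 25459, with a change of -0.22 (-0.63 to 0.20). With quantile normalisation Cxcr6 passed as lower, at -0.66 (adjusted p 0.00897 by limma). Ccr3 was 57.9, 50.3, 46.4 and 66.1, Ccr8 1978, 1731, 1130.1 and 1294 and Cx3cr1 202, 148, 248 and 110.3, all overlapping the allogeneic ranges. Their log2 changes were -0.02 (-0.85 to 0.80) for Ccr3, 0.22 (-0.58 to 1.02) for Ccr8 and -0.44 (-1.30 to 0.42) for Cx3cr1.

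CD8 cells of Treg-treated hosts kept overlapping levels of all 7 receptors with allogeneic hosts. Cxcr3 was 7792, 9295, 5681 and 7387, with a log2 change of 0.01 (95% interval -0.39 to 0.41), and Cxcr6 was 31799, 36703, 25745 and 30765, with 0.24 (-0.17 to 0.65). For these effector receptors the intervals stay within a log2 change of 1. Ccr2 was 6991, 5026, 4409.5 and 3756, with -0.35 (-0.86 to 0.17), and Cx3cr1 was 1380.0, 774, 850.0 and 992, with -0.14 (-1.0 to 0.73). Ccr3 and Ccr8, which differed so widely between allogeneic and syngeneic CD8 cells, were 68.8, 82.7, 82.5 and 77.6 and 515, 689, 524 and 703, with log2 changes of 0.01 (-0.82 to 0.83) and 0.08 (-0.72 to 0.88). The smaller changes among these turn sign with the scaling or with 1 library left out.

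**Figure D4:**
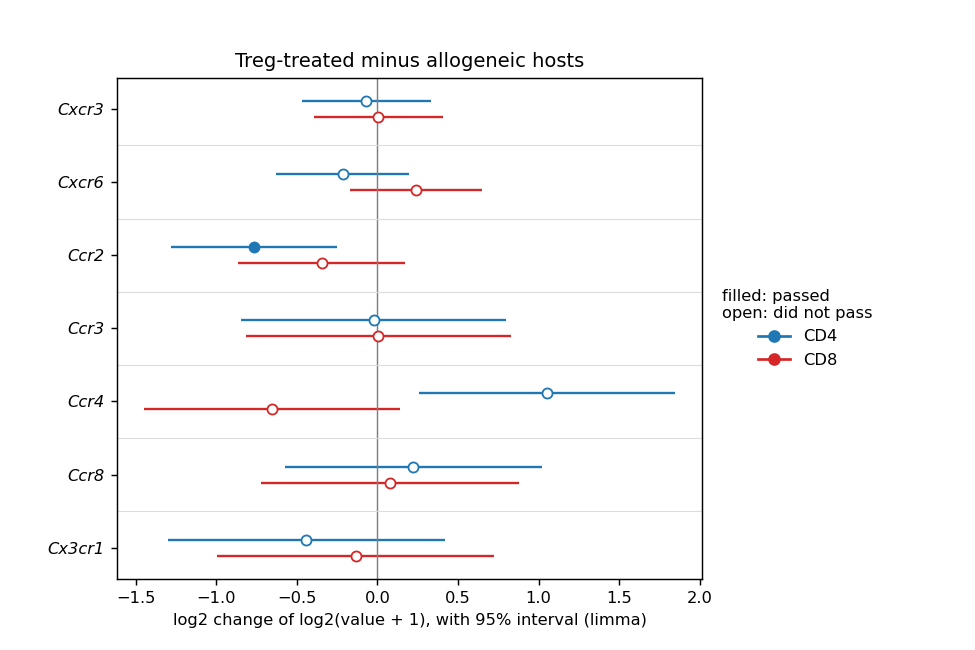
Log2 change of each receptor in Treg-treated against allogeneic hosts, on log2(value + 1), in CD4 (blue) and CD8 cells (red), with limma 95% intervals. The filled point, CD4 Ccr2 at -0.77, passed at an adjusted p under 0.05, and CD4 Ccr4 at 1.05 did not.

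The transferred Treg themselves carried a receptor pattern of their own. Against CD4 cells of Treg-treated hosts, Ccr2, Ccr3, Ccr4 and Ccr8 were higher and Cxcr6 was lower, 5 of 7 receptors beside 30.0% of all genes. The JL027 Treg library carries no host number, so its host cannot be matched to a CD4 library. The same 5 receptors passed in the same directions at day 0, where 3.89% of all genes were called, in Treg and CD4 libraries that the later comparison does not use. Cxcr3 and Cx3cr1 did not pass at either time in the fit over all libraries, but at day 0 Cxcr3 passed as higher with quantile normalisation, 0.80 (adjusted p 0.0377 by limma), with only the groups compared, 0.60 (adjusted p 0.038 by limma), and with array weights (adjusted p 0.0242 by limma). The low Foxp3 of the day 0 Treg libraries, given above, stands beside these day 0 results. In Treg-treated hosts Foxp3 was 265 to 293 in Treg and 127 to 178 in CD4 cells, without overlap. Its log2 change of 0.86 did not pass (adjusted p 0.33 by limma), while Treg marker sums were 163298 to 236474 and 54801 to 130016. These Treg held less Foxp3 than allogeneic CD4 libraries, at 337 to 579. The part of Foxp3 in the results at either time was not tested.

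Ccr8 in Treg was 1632 and 1817 at day 0 and 10371, 8309 and 5192 after transplantation, against 204 and 194 in CD4 cells at day 0. All Treg libraries lay above the CD4 libraries of the same time, and the log2 change was 3.11 (± 0.551 SE, adjusted p 0.000758 by limma) at day 0 and 2.35 (± 0.421 SE, adjusted p 0.00022 by limma) in Treg-treated hosts. Ccr4 in Treg was 1140.1 and 1106 and then 2539, 2619 and 1879, with log2 changes from CD4 cells of 2.44 (± 0.548 SE, adjusted p 0.00777 by limma) and 1.41 (± 0.419 SE, adjusted p 0.0135 by limma).

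Ccr3 in Treg was 152 and 117 at day 0 and 514, 511 and 453 after transplantation, against 0 and 2.49 in day 0 CD4 cells, 1 of which is listed at 0. All Treg libraries lay above every library of the other cell types. The log2 change from CD4 cells in Treg-treated hosts was 3.15 (± 0.433 SE, adjusted p 8.65e-06 by limma), and the one at day 0 was 6.17 (± 0.567 SE, adjusted p 4.67e-08 by limma), or 8.03 (adjusted p 6.00e-07 by limma) with 0.1 added in place of 1. In Treg-treated hosts 4 of 8 eosinophil, basophil and mast cell markers passed as lower in Treg than in CD4 cells and none as higher, with sums of 39.2 to 93.9 and 332 to 2066.

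Ccr2 in Treg was 1662 and 1534 at day 0 and 12377, 14228 and 13872 after transplantation, where it exceeded every other library of the table. The log2 change from CD4 cells was 1.49 (± 0.356 SE, adjusted p 0.0129 by limma) at day 0 and 1.99 (± 0.272 SE, adjusted p 7.90e-06 by limma) in Treg-treated hosts. All 8 granulocyte markers and 3 of 12 monocyte and macrophage markers passed as lower in Treg than in CD4 cells of Treg-treated hosts, while 1 of the 12 passed as higher. At day 0 the monocyte and macrophage sums were higher in Treg, 12889 to 13754 against 5889.9 to 7188 in CD4 libraries, with Csf1r, the receptor of a macrophage growth factor, at 117 to 122 against 44.5 to 51.9. None of the 12 passed (limma; 2 at an unadjusted p under 0.05), and their part in the day 0 Ccr2 result was not tested. The day 0 calls of Ccr2 and Ccr4 were lost whichever of the 4 libraries was left out, with log2 changes of 1.43 to 1.54 for Ccr2 and 2.42 to 2.46 for Ccr4.

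Cxcr6 went the other way. It was 731 and 719.7 in day 0 Treg and 4293, 6171 and 5059 after transplantation, below the CD4 libraries of day 0 and of Treg-treated hosts respectively, without overlap. The log2 change from CD4 cells was -2.45 (± 0.284 SE, adjusted p 2.69e-06 by limma) at day 0 and -2.61 (± 0.217 SE, adjusted p 1.90e-09 by limma) in Treg-treated hosts. At day 0 and in Treg-treated hosts Treg thus had the lowest Cxcr6 level of the 3 cell types, while syngeneic CD4 cells, at 2496, 1294 and 2040.2, lay below the Treg of Treg-treated hosts.

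**Figure D5:**
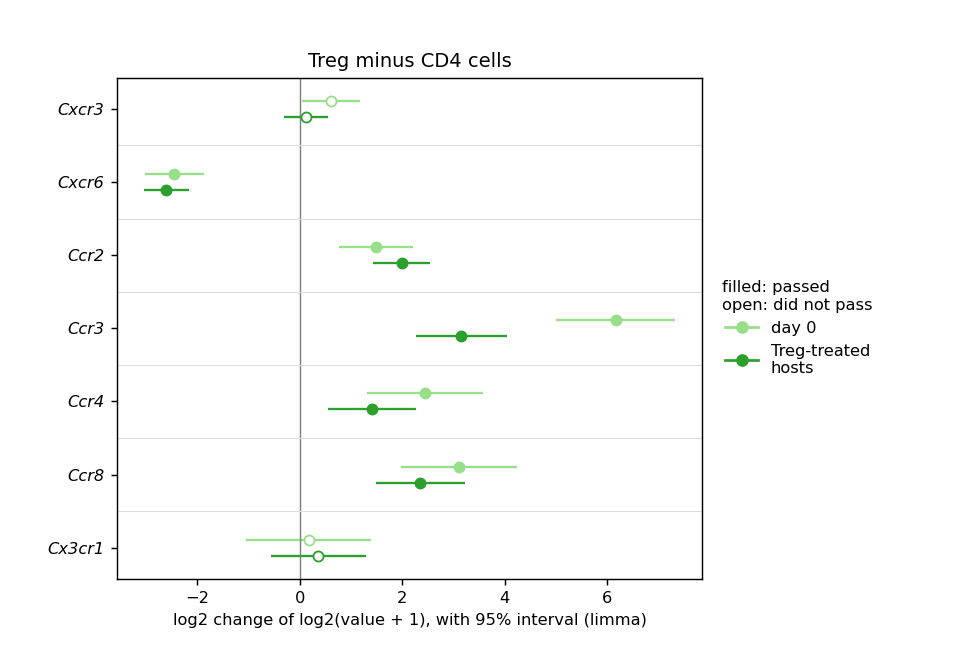
Log2 change of each receptor in Treg against CD4 cells, on log2(value + 1), at day 0 (light green) and in Treg-treated hosts (dark green), with limma 95% intervals. Filled points passed at an adjusted p under 0.05. Cxcr6 lies below 0 at both times (-2.45 and -2.61), and Ccr2, Ccr3, Ccr4 and Ccr8 lie above it.

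Within the Treg lineage 5 of 7 receptors rose from day 0 to the Treg-treated hosts, beside 8.43% of all genes as higher and 13.3% in either direction. Cxcr3 rose from 2962 and 2949.5 to 9800.1, 9412 and 6690.0, a log2 change of 1.53 (± 0.251 SE, adjusted p 7.84e-05 by limma), and Cxcr6 by 2.82 (± 0.259 SE, adjusted p 1.39e-08 by limma). Ccr2 rose by 3.08 (± 0.325 SE, adjusted p 1.21e-07 by limma), Ccr8 by 2.15 (± 0.503 SE, adjusted p 0.00374 by limma) and Ccr3 by 1.88 (± 0.517 SE, adjusted p 0.014 by limma). Later and earlier libraries did not overlap for any of these 5. The Ccr3 call was lost with 0.1 added, 1.88 (adjusted p 0.121 by limma), and without either day 0 library, 2.07 (adjusted p 0.0634 by limma) without JL019 and 1.68 (adjusted p 0.136 by limma) without JL027. The Ccr8 call was lost without day 0 JL019, 2.07 (adjusted p 0.0545 by limma), so that 3 of 7 passed there. Ccr4 had a log2 change of 1.05 (± 0.501 SE, adjusted p 0.194 by limma). Cx3cr1 had one of 1.54 (± 0.542 SE, adjusted p 0.0607 by limma), from 64.3 and 85.7 to 260.4, 209 and 189. Neither of those passed over all libraries, although their groups did not overlap. With only the groups compared both passed (adjusted p 0.00315 and 0.00589 by limma). They also passed with the uneven array weights described above (adjusted p 0.0403 and 0.000989 by limma). Cx3cr1 passed with quantile normalisation as well, 1.95 (adjusted p 0.0183 by limma).

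Other marker lists moved with time in Treg as well. Treg marker sums were 70458 to 71546 at day 0 and 163298 to 236474 in Treg-treated hosts, with 3 of 7 passing as higher and 1 as lower. Granulocyte sums were 387 to 805 and 1148 to 7436 (2 of 8 higher), and erythroid sums were 117 to 451 and 1644 to 50088 (3 of 6 higher). Monocyte and macrophage sums were 12889 to 13754 and 7675 to 10168 (1 of 12 higher and 1 lower), and 1 of 6 NK cell markers passed as higher and 3 as lower. The part of these lists in the receptor changes was not tested.

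CD8 and CD4 cells were compared at day 0 and in allogeneic hosts. At day 0, 3 of 7 receptors passed, beside 3.32% of all genes. Ccr4 was 36 and 29 in CD8 and 208 and 204 in CD4 cells, a log2 change of -2.64 (± 0.548 SE, adjusted p 0.00385 by limma). Ccr8 was 13.3 and 9.73 and 204 and 194, a log2 change of -4.01 (± 0.551 SE, adjusted p 2.36e-05 by limma). Cxcr6 was higher in CD8 cells, 7925 and 10505 against 4175 and 3761, a log2 change of 1.20 (± 0.284 SE, adjusted p 0.0116 by limma) that did not pass with median centring, 1.06 (adjusted p 0.11 by limma). Ccr3, with 1 CD4 library listed at 0, had a log2 change of 1.97 (± 0.567 SE, adjusted p 0.0517 by limma). This depends on the constant added, since with 0.1 it passed at 3.64 (adjusted p 0.0103 by limma), and at 1.97 it also passed with each of the 3 replicate blocks (adjusted p 0.0212, 0.0378 and 0.0218 by limma). Cxcr3 passed as higher with quantile normalisation, with only the groups compared and with array weights (adjusted p 0.034, 0.0264 and 0.0318 by limma). Without CD8 day 0 JL027 the number of receptors that passed was 1. Other marker sums also lay apart at day 0, and 1 marker each of the erythroid, granulocyte, B cell and NK cell lists passed as higher. Erythroid sums were 29059 to 33121 in CD8 and 489.7 to 1161 in CD4 libraries, granulocyte sums 2696 to 3226 and 486 to 642, B cell sums 1917 to 2673 and 534 to 718, and NK cell sums 2148 to 2811 and 913 to 928. Treg marker sums were 2571 to 3190.3 and 11986 to 13049.9, with 5 of 7 passing as lower. The part of these lists in the receptor differences was not tested.

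In allogeneic hosts 2 of 7 receptors differed between the cell types, beside 6.15% of all genes. Ccr4 was 15.7, 47.1, 33.8 and 25.1 in CD8 and 462, 393, 454 and 379.6 in CD4 cells, a log2 change of -3.85 (± 0.388 SE, adjusted p 1.20e-07 by limma). Cx3cr1 was 1043, 1359, 1065 and 869 in CD8 and 248, 309.9, 219.5 and 166 in CD4 cells, a log2 change of 2.21 (± 0.42 SE, adjusted p 0.00106 by limma). Neither receptor's ranges overlapped. Of 6 NK cell markers 3 passed as higher in these CD8 cells, with sums of 12165 to 20067 in CD8 and 1885 to 2191 in CD4 libraries, and their part in the Cx3cr1 difference was not tested. Ccr8 was 423, 517, 684 and 699.8 in CD8 cells, below all CD4 values of 1147, 997, 1438 and 1636, a log2 change of -1.17 (± 0.39 SE, adjusted p 0.0761 by limma) that passed with the recipient as a block, with only the groups compared and with array weights (adjusted p 0.0323, 0.0047 and 0.000276 by limma). Cxcr3, Cxcr6, Ccr2 and Ccr3 did not pass (limma adjusted p 0.745, 0.215, 0.874 and 0.61). Cxcr6 passed as lower with quantile normalisation, -0.67 (adjusted p 0.00829 by limma), and with array weights, -0.56 (adjusted p 0.00266 by limma). Treg marker sums were 32089 to 41887 in these CD8 and 48180.3 to 62729 in these CD4 libraries. Their part in the Ccr4 and Ccr8 differences was not tested.

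Ordered by mean level over the 10 groups, each receptor had its own ranking. Cxcr3 was highest in syngeneic CD8 cells (13924 ± 3297 (SD, n = 3)), whose range did not overlap the next group, Treg after transplantation (8634 ± 1695 (SD, n = 3)). From there to allogeneic CD8 cells, neighbouring groups overlapped. Cx3cr1 was highest in allogeneic (1084 ± 204 (SD, n = 4)) and Treg-treated CD8 cells (999 ± 269.5 (SD, n = 4)), which overlapped. The 4 groups next in order lay between means of 177 and 241, and neighbours among them overlapped. The 241 is the mean of syngeneic CD4 cells, which was 70.1 without the library labelled CD4 syngeneic JL019-2, close to the 2 lowest groups. Ccr4 fell in 3 blocks without overlap between them, with Treg above CD4 and CD4 above CD8 groups, and its lowest library was Treg-treated CD8 JL027-1 at 7.41. Ccr2 had a gap between Treg after transplantation (13492 ± 982 (SD, n = 3)) and syngeneic CD8 cells (7311 ± 605 (SD, n = 3)). The 3 day 0 groups came last.

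The group patterns of some receptors resembled each other, as a description over 10 group means of log2(value + 1) that share libraries and scaling. Of the 21 pairs of receptors the highest Pearson correlation was 0.85 for Cxcr3 and Ccr2, followed by 0.81 for Ccr3 and Ccr8, and the lowest was -0.53 for Ccr4 and Cx3cr1. The 3 genes whose group means were most like each receptor, among 13201 ranked, were F2r, Gsap and Gimap5 for Cxcr3 (all with r = 0.92) and Gpr171, Brap and Wrap73 for Cxcr6 (0.94 to 0.95). For Ccr2 they were Ubald2, Rnf157 and Fbxo44 (0.96 to 0.98), for Ccr3 Tmbim1, Ica1 and Trpc1 (0.94 to 0.95), and for Ccr4 Ecm1, Phyh and Timd2 (0.93 to 0.95). For Ccr8 they were Tnfrsf4, Slamf1 and Ptpn13 (0.98 to 0.99), and for Cx3cr1 Myef2, Anxa7 and Rdh11 (0.95 to 0.98).

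Genes that act with these receptors were followed in the same fits, as lists of ligands (9 measured of 17), other chemokine receptors (13 of 17), G-protein signalling (32 of 32) and T-cell transcription factors (14 of 14). The ligands Cxcl11, Ccl2, Ccl7, Ccl8, Ccl11, Ccl12, Ccl17 and Ccl22 were not analysed here. In CD4 cells of Treg-treated against allogeneic hosts, 3 of 9 ligands passed as higher and none as lower, beside 22.2% of all genes in either direction, with a list median of 1.04 against -0.0018 over all genes. Ccl1, the ligand of CCR8, was 13214 ± 5054 (SD, n = 4) over the Treg-treated libraries and 2875 ± 1159 (SD, n = 4) over the allogeneic ones, and its log2 change was 2.19 (± 0.48 SE, adjusted p 0.00879 by limma). Ccl3 and Ccl4, chemokines secreted by activated T cells, had log2 changes of 2.14 (± 0.447 SE, adjusted p 0.00738 by limma) and 1.73 (± 0.318 SE, adjusted p 0.00348 by limma). The groups did not overlap for any of these 3 ligands.

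Of the other receptors 1 passed as higher in CD4 cells after Treg treatment, Ccr6, a receptor of type 17 helper cells, with 1.84 (± 0.597 SE, adjusted p 0.0303 by limma) and overlapping groups. Of 32 signalling genes 3 passed as higher and 12 as lower, with a median of -0.23, while 11.5% of all genes were called as lower and 22.2% in either direction. Rgs10, a regulator that switches off G proteins, was 1964 ± 514 (SD, n = 4) over the Treg-treated libraries and 658 ± 48.7 (SD, n = 4) over the allogeneic ones, and its log2 change was 1.54 (± 0.246 SE, adjusted p 0.00152 by limma), while Pik3cg, a kinase activated by these receptors, had -2.27 (± 0.574 SE, adjusted p 0.0135 by limma) and Plcb3, a phospholipase, -1.80 (± 0.481 SE, adjusted p 0.0155 by limma). Rgs10 was also the single listed gene of the 4 lists to pass in CD8 cells, with 1.47 (± 0.246 SE, adjusted p 0.00829 by limma). Among 14 transcription factors 1 was higher, Batf (0.85 (± 0.234 SE, adjusted p 0.0167 by limma)), and 3 were lower, among them Prdm1, the factor Blimp-1 of effector cells (-1.37 (± 0.251 SE, adjusted p 0.00348 by limma)), and Stat6, which carries the interleukin-4 signal (-1.57 (± 0.465 SE, adjusted p 0.0213 by limma)). Leaving out single libraries ended the calls of Ccr6, Pik3cg, Plcb3, Batf and Stat6.

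In allogeneic against syngeneic hosts, Ccr7, the lymph node homing receptor, fell in both cell types. Its log2 change was -3.36 (± 0.416 SE, adjusted p 1.53e-06 by limma) in CD4, or -4.10 (adjusted p 5.86e-09 by limma) without the library labelled CD4 syngeneic JL019-2, and -4.47 (± 0.416 SE, adjusted p 4.83e-09 by limma) in CD8 cells. Of 13 other receptors 2 passed as higher and 3 as lower in CD4 cells, and 2 as higher and 2 as lower in CD8 cells, beside 14.6% and 21.1% of all genes. In CD4 cells the gut-homing receptor Ccr9 rose by 4.19 (± 0.334 SE, adjusted p 6.64e-10 by limma), or by 4.74 (adjusted p 1.62e-11 by limma) without that library. Cxcr2, the neutrophil chemokine receptor, fell by 3.22 on the log2 scale (limma adjusted p 0.000365), and by 1.85 without the library labelled CD4 syngeneic JL019-2. In CD8 cells Cxcr5, the follicle receptor, changed by -3.88 (± 0.517 SE, adjusted p 2.30e-06 by limma), and Ccr6 by 3.50 (± 0.645 SE, adjusted p 0.000191 by limma).

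In allogeneic against syngeneic CD4 cells, where 6.69% of all genes passed as higher and 14.6% in either direction, 2 of 9 ligands passed as higher, Ccl1 (2.12 (± 0.518 SE, adjusted p 0.00498 by limma)) and Ccl24 (2.26 (± 0.765 SE, adjusted p 0.0458 by limma)), and the Ccl24 call was ended by 4 of 7 left-out libraries. Without the library labelled CD4 syngeneic JL019-2 these changes were 1.78 (adjusted p 0.0447 by limma) and 3.10 (adjusted p 0.00991 by limma). In CD8 cells 4 passed as higher and 2 as lower, beside 21.1% of all genes in either direction. Among them Ccl1 changed by 3.46 (± 0.518 SE, adjusted p 1.28e-05 by limma), Ccl3 by 2.29 (± 0.483 SE, adjusted p 0.000866 by limma), and Cxcl10, a CXCR3 ligand, by -2.51 (± 0.506 SE, adjusted p 0.000535 by limma). Of 32 signalling genes 5 rose and 5 fell in CD4 cells and 6 rose and 5 fell in CD8 cells, against the same 14.6% and 21.1% of all genes. Plcb2 fell in both, with -2.30 (± 0.315 SE, adjusted p 7.15e-06 by limma) and -2.41 (± 0.315 SE, adjusted p 1.64e-06 by limma), and in CD8 cells Rgs16 rose by 5.09 (± 0.583 SE, adjusted p 1.88e-07 by limma) while Rgs10 changed by -3.35 (± 0.266 SE, adjusted p 2.51e-10 by limma). In CD4 cells Rgs1 changed by 1.85 (± 0.277 SE, adjusted p 2.52e-05 by limma) and Rgs18, abundant in platelets and myeloid cells, by -5.20 (± 0.779 SE, adjusted p 2.52e-05 by limma), and without the library labelled CD4 syngeneic JL019-2 the CD4 changes were 2.11 (adjusted p 1.06e-05 by limma) for Rgs1, -3.58 (adjusted p 9.82e-05 by limma) for Rgs18 and -2.42 (adjusted p 1.93e-05 by limma) for Plcb2.

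Listed T-cell transcription factors moved in both directions between allogeneic and syngeneic hosts. Of 14, 7 were higher and 1 lower in allogeneic CD4 cells, and 6 higher and 2 lower in allogeneic CD8 cells, where 14.6% and 21.1% of all genes were called in either direction. Prdm1 changed by 2.91 (± 0.272 SE, adjusted p 1.43e-08 by limma) in CD4 and 4.48 (± 0.272 SE, adjusted p 1.78e-12 by limma) in CD8 cells, and Bhlhe40, a factor of inflammatory cytokine production, by 3.24 (± 0.363 SE, adjusted p 3.09e-07 by limma) and 3.78 (± 0.363 SE, adjusted p 7.90e-09 by limma). Stat4, which carries the interleukin-12 signal, changed by 1.87 (± 0.247 SE, adjusted p 4.64e-06 by limma) in CD4 cells. Without the library labelled CD4 syngeneic JL019-2 the CD4 changes were 2.51 (adjusted p 9.12e-08 by limma) for Prdm1, 2.92 (adjusted p 5.63e-06 by limma) for Bhlhe40 and 1.43 (adjusted p 2.92e-05 by limma) for Stat4. The factors that passed as lower, named after their values were seen, were Zeb2 in CD4 cells, with -1.61 (± 0.466 SE, adjusted p 0.0182 by limma), and in CD8 cells Eomes, with -2.17 (± 0.263 SE, adjusted p 4.78e-07 by limma), and Zfp683, the factor Hobit, with -1.79 (± 0.403 SE, adjusted p 0.00165 by limma). The Zeb2 call was lost without the library labelled CD4 syngeneic JL019-2, -0.48 (adjusted p 0.294 by limma). Foxp3 in CD8 cells was 334, 453, 103 and 335 in allogeneic libraries against 0, 3.52 and 0 in syngeneic ones, 2 of which are listed at 0, with no overlap (limma adjusted p 2.05e-09).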

How the data were processed

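Bulk RNA of 31 libraries was analysed in 10 groups taken from the sample titles. The cDNA was made full-length with the SMARTer v4 chemistry and sequenced as Nextera XT libraries, per the labels' protocols. The submitters' processing notes list FastQC 0.11.7, kallisto, DESeq2 and the build GRCm38 (mm10), without roles or order. The deposited values are a signal per gene (16741 genes): per the file headers, which match a DESeq2 results table, the authors had normalised read counts for library size. Because they share no step size, reads could not be recovered, the depth is unknown, and a count test was not used. The T-cell receptor tables were read only for the experiment that each prefix (JL019 or JL027) names.

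Values were log2(value + 1) transformed, and limma 3.58.1 in R 4.3.3 fitted a group-means model to all libraries, with trend and robust moderated variances, 15 contrasts and Benjamini-Hochberg adjustment at 0.05 over all genes. A mean value of at least 1 was required and removed no gene. The script was tested on simulated data. The receptors, lists and tests were chosen with earlier results of these data known. Listed genes are named by rule: up to 3 of each list per main contrast with the lowest p among those called. Likeness is Pearson's r over the group means. All 7 gene IDs matched their symbols in the gene name table, and promoter windows are from RefSeq (GRCm38.p6).

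Alternatives were another constant (0.1), a mean of at least 10, no filter, median centring, quantile normalisation and a log2 library mean covariate. Others were a log2 change of at least 1, only the groups compared, array weights and leaving out each library. The 3 replicate blocks were the prefix, the replicate label and the recipient. Recipient means the same prefix, arm and, where titles give one, number. Day 0 libraries of the same prefix share such a block although their cells had no host. Deviations from group means correlated with a median r of 0.13 over 21 pairs of libraries of the same recipient, 11 of them above 0.1, and of 0.02 over 51 pairs with the same label in another arm.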

Additional observations from a re-analysis of the deposited data

Results flagged for a closer look

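Each receptor was checked in each group of 4 libraries for 1 library far from the rest (Dixon's critical value 0.829). Of these 28 checks 2 stood out. Chance gives about 1 in 20 for a single check, and the checks share libraries. In CD4 cells of Treg-treated hosts Cxcr3 was 8601 in JL019-2, above 7695, 7523 and 7669 in the rest. In allogeneic CD8 cells Cxcr6 was 36819.8 in JL027-1, above 24422, 23238 and 22739 in the rest, and without it the change from syngeneic hosts was 0.93 in place of 1.09.

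The allogeneic against syngeneic change differed between the cell types for 6 receptors in a test of the difference itself (limma, CD8 minus CD4). The difference was -2.88 for Cxcr3, -3.18 for Cxcr6 and -1.50 for Ccr2, which changed more towards higher levels in CD4 cells. It was 3.37 for Ccr3, 2.91 for Ccr8 and 2.35 for Cx3cr1, which rose more in CD8 cells. Without the library labelled CD4 syngeneic JL019-2 the Cx3cr1 difference was 1.34 (adjusted p 0.058 by limma), and 5 of the 6 still passed. The CD4 side of each rests on 3 syngeneic libraries, whose granulocyte marker sums were 119335, 4572693 (JL019-2) and 107592, against 7239 to 14952 in allogeneic CD4 libraries. On the CD8 side these sums were 51188 to 83211 in syngeneic and 7093 to 12612 in allogeneic libraries. B cell marker sums were 3275 to 4051 and 1134 to 1256 in the same CD8 groups. The part of these markers in the differences was not tested.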

How the results depend on the processing

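Over the 15 comparisons the count of receptors that passed kept within 1.5 times its value in 167 of 180 results. These are of the alternatives that left out no single library. The log2 changes of receptors that passed kept their call in 622 of 636. Both tallies hold the alternative without a filter, which equals the main fit because the filter removed no gene. They also hold a log2 change of at least 1, a cut-off on the main fit, and fits with only the groups compared. In CD4 cells of Treg-treated against allogeneic hosts, the count of 1 became 2 with a mean of at least 10, with a replicate block by label or by recipient, with only the groups compared and with array weights. It became 3 with quantile normalisation and 0 with a log2 change of at least 1 or the library mean covariate. Between syngeneic and day 0 CD4 cells the count of 3 became 0 with only the groups compared and 5 with array weights. Between CD8 and CD4 cells it went from 3 to 5 at day 0 with only the groups compared, and from 2 to 4 in allogeneic hosts with array weights. The difference of Treg effects went from 0 to 1 with array weights, a fit whose weights did not fully converge. The causes were not tested.

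Leaving out 1 library gave counts of 0 to 1 in CD4 cells of Treg-treated against allogeneic hosts, 3 to 5 in Treg against day 0 (3 without Treg day 0 JL019), 3 in every fit for Treg against CD4 cells at day 0, and 1 to 3 for CD8 against CD4 cells at day 0. The prefix, label and recipient blocks left the other counts within 1.5 times.

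Changes near 0 between Treg-treated and allogeneic hosts turned sign. In CD4 cells Cxcr3 became 0.13 and Ccr3 0.18 with median centring, Ccr3 was 0.011 with array weights, and it ranged from -0.21 to 0.16 with 1 library left out. In CD8 cells Cxcr3 became -0.13 with quantile normalisation, -0.041 with the covariate, -0.0056 with the recipient as a block and -0.10 with array weights, and ranged from -0.10 to 0.14 with 1 library left out. Cxcr6 became -0.034 with quantile normalisation and Ccr3 -0.046 with the covariate. With 1 library left out Ccr3 ranged from -0.029 to 0.063 and Ccr8 from -0.063 to 0.18. Median centring moved the median of all genes by -0.22 to 0.20 over the comparisons. Depth is unknown, and groups of 2 to 4 libraries limit the precision.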
